A study of Mus musculus with 2 samples.

Results

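The genes described here are 7 genes of Wnt and RANKL signalling between mammary cells, chosen by name out of 32285 genes measured: Wnt4, Tnfsf11, Tbx3, Rspo1, Axin2, Lgr4 and Tcf7l2. They were measured by single-cell RNA sequencing in tumors of 2 mice of 1 group, Krt8-CreERT/Rosa26-mTmG/MMTV-PyMT. In these mice the mammary epithelium makes the polyoma middle T oncogene, and tamoxifen (150 mg/kg, 3 days in each of weeks 5 and 6 of age, 6 days in all) marks cells expressing the luminal keratin gene Krt8 and their descendants with green fluorescent protein (GFP). Tumors were taken at 1.5 cm3, and GFP-positive cells negative for DAPI, CD31 and CD45 were sorted, so that labelled luminal cells and their progeny were sampled and stroma was to be excluded. There was no untreated or unlabelled group.

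In the mammary gland, hormone-sensing (mature luminal) cells carry the receptors for estrogen, progesterone and prolactin, and pass the hormonal signal on to neighbouring cells through secreted proteins. Wnt4 and RANKL, the product of Tnfsf11, are the best known of these progesterone-driven signals, and Tbx3 is a T-box transcription factor of the hormone-sensing lineage. R-spondin 1, the product of Rspo1, binds receptors of the Lgr family such as Lgr4 and keeps Wnt receptors on the cell surface. Tcf7l2 is one of the TCF/LEF factors through which beta-catenin acts on chromatin, and Axin2, a scaffold of the complex that degrades beta-catenin, is a widely used target gene of the pathway.

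The authors' annotation assigned 3829 cells of mouse 1 (median 15014 UMIs, unique transcript molecules) and 5330 cells of mouse 2 (median 9470 UMIs) to 18 clusters, numbered 0 to 17. The 2 libraries shared 20 barcodes, 9 of them annotated in both. The study describes cluster 13 as mature luminal and cluster 6 as lumino-basal, and both were compared here with each other and with all other annotated cells (called other tumor cells). Cluster 13 held 73 and 192 cells with 1219562 and 2417170 UMIs, and cluster 6 held 260 and 167 cells with 3410589 and 1590251 UMIs. The 8 mature luminal markers summed to 6033 and 9756 CPM (gene UMIs per 1000000 UMIs) in cluster 13, against a median of 448 and 443 CPM over the clusters other than 6 and 13, and none of the 8 was at 0. The 10 basal and myoepithelial markers summed to 4615 and 4510 CPM in cluster 6, against medians of 70.4 and 83.6 CPM. Cluster 6 also carried fibroblast markers (12 genes, 1597 and 3297 CPM, none at 0, against 27.1 and 233 CPM in cluster 13). Endothelial markers (9 genes) summed to 36.4 and 462 CPM in cluster 6, with 1 at 0 in mouse 1 and none in mouse 2.

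All 7 members are protein-coding genes, and their identifiers match those of the annotation on GRCm38. Wnt4 (ENSMUSG00000036856) lies on the plus strand of chromosome 4 from 137277489 to 137299726, and Rspo1 on the same chromosome from 124986430 to 125009099. Tnfsf11 (ENSMUSG00000022015) lies on the minus strand of chromosome 14 from 78277445 to 78308043. Tbx3 is on chromosome 5, Axin2 on chromosome 11, Lgr4 on chromosome 2 and Tcf7l2 on chromosome 19. Reads came from the 3′ ends of transcripts, so levels here say nothing of promoter use or isoforms.

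The bases before the starts of Wnt4 and Tnfsf11 are shown because these secreted signals of the same hormone-sensing cells gave 489 and 0 UMIs in cluster 13. The sequences are RefSeq promoter windows (GRCm38.p6), from chr4:137277385-137277488 on the plus strand for Wnt4 (trimmed at the annotated gene start) and from chr14:78308044-78308293 on the minus strand for Tnfsf11. Capitals mark matches on either strand to the GC box, whose letters are GGGCGG, and to the TATA core, whose letters are TATAA, and overlapping matches run together.
Wnt4: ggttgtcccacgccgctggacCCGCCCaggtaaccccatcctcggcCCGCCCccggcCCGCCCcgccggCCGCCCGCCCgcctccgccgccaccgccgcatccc
Tnfsf11: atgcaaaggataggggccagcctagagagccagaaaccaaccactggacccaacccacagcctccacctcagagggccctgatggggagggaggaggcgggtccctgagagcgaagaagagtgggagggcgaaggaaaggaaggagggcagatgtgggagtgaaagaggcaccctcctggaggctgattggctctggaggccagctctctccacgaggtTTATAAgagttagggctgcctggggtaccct

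The 2 windows differ in composition, with 83.7% G and C in the 104 bases of Wnt4 and 60.4% in the 250 bases of Tnfsf11. The printed bases of Wnt4 had 5 matches to the GC box and none to the TATA core, and those of Tnfsf11 had none to the GC box and 2 overlapping matches to the TATA core. The 250-base RefSeq window of Wnt4 had 8 matches to the GC box, but 146 of its bases lie inside the gene as GENCODE places it. Of 32851 RefSeq promoters cut to 250 bases, 32.7% held the GC box and 22.8% the TATA core. A table entry was found for 6 of the 7 members (not for Tbx3). The TCF/LEF core CTTTGA, searched on both strands and present in 13.8% of promoters, was in no member's window, and the steroid receptor half-site AGAACA, present on either strand in 16.1%, was in that of Axin2 and in 1 of the 2 windows of Tcf7l2. A match is a description of letters and not a binding site.

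Wnt4 was a transcript of cluster 13. It stood at 125 CPM in mouse 1 (153 UMIs, exact Poisson 95% interval 106 to 147) and at 139 CPM in mouse 2 (336 UMIs, 125 to 155), a mean of 132 ± 9.58 CPM (SD, n = 2 mice). Intervals here and below cover counting error only. The next cluster in order, cluster 10, had 12.6 and 9.74 CPM, and cluster 6 had 6.16 and 11.3 CPM. The ranges of the mice were apart only between cluster 13 and cluster 10, and below that every pair of neighbours overlapped, down to cluster 7 with 0.738 and 1.00 CPM. Cluster 13 was 1.91% and 3.60% of the cells and held 48.9% and 65.9% of all annotated Wnt4 UMIs.

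**Figure D1:**
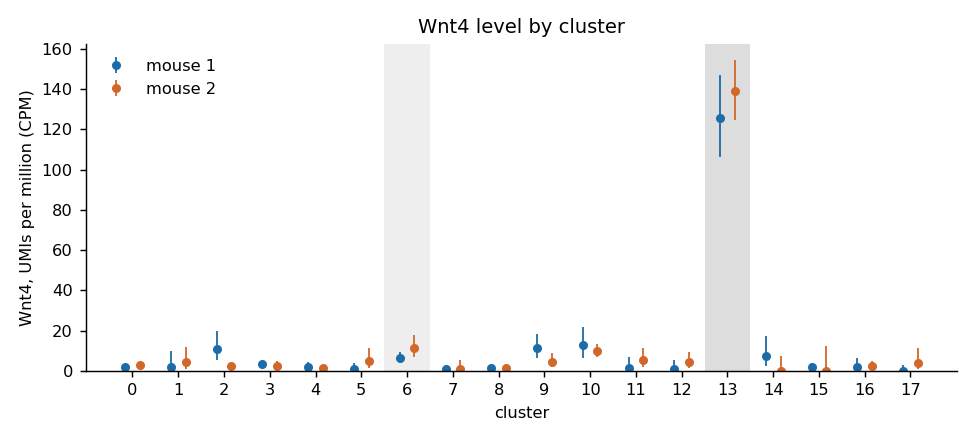
Wnt4 level (CPM) in each of the 18 clusters, for mouse 1 and mouse 2, with exact Poisson 95% intervals; shading marks clusters 6 and 13. Cluster 13 stands at 125 and 139 CPM, and no other cluster exceeds 12.6 CPM.

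In single cells of cluster 13, a Wnt4 UMI was found in 72.6% of mouse 1 (53 of 73, with a Clopper-Pearson 95% interval of 60.9 to 82.4%) and in 65.6% of mouse 2 (126 of 192, 58.4 to 72.3%). In the other tumor cells the shares were 3.18% and 2.76%. Barcodes without annotation that carried UMIs of at least 3 leukocyte markers were taken as a rough background. The authors removed doublets, so such barcodes may include tumor cells joined to leukocytes, and are not known to lack Wnt4 or Lgr4. They gave a Wnt4 UMI in 0 of 23 in mouse 1 (3 barcodes of 23 would be 13.04%) and in 7 of 215 (3.26%) in mouse 2. Their median depths were 6245 and 3866 UMIs against 15278 and 11818.5 in cluster 13. The share in the other tumor cells lay below that of these barcodes in mouse 2, although the other tumor cells were deeper (median 9369 UMIs). Whether the Wnt4 UMIs of the other tumor cells are background was not tested. The 23 barcodes of mouse 1 are too few for such a comparison. Cluster 10, the next in order, had a Wnt4 UMI in 28 of 263 cells of mouse 2 (10.6%, 7.19 to 15.0%), above the interval of these barcodes (1.32 to 6.59%), at a median depth of 13213 UMIs. Thinned to 2000 UMIs, the share of cluster 10 was 1.61% (0.439 to 4.06%) and that of the barcodes 1.33% (0.162 to 4.73%). With every cell thinned to 2000 UMIs, 16.7% (8.92 to 27.3%) and 23.5% (17.6 to 30.3%) of cluster 13 cells kept a Wnt4 UMI, with 1 and 9 shallower cells left out, against 0.497% and 0.726% of the other tumor cells. Another random draw gave 27.8% (17.9 to 39.6%) and 26.8% (20.5 to 33.8%) for cluster 13.

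Against the other tumor cells, 5 of the 7 members had enough UMIs in cluster 13 to be tested. Of these, 2 were higher (Wnt4 and Tbx3), 2 were lower (Lgr4 and Tcf7l2) and 1 did not pass (Axin2), where of all 13964 genes tested 11.0% were higher and 11.0% were lower. UMI sums per mouse were tested by edgeR's quasi-likelihood method, blocked by mouse, at a Benjamini-Hochberg adjusted p of 0.05. Because the same expression data define the clusters, a call says only that the 2 mice share a difference. The median log2 fold change of all genes was -0.10.

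Wnt4 had 2.57 CPM in the other tumor cells of mouse 1 and 2.95 CPM in those of mouse 2. In cluster 13 it was 48.8-fold higher over both mice together (95% counting interval 42.1 to 56.5), with a log2 fold change of 5.68 (SE 0.23, edgeR adjusted p = 1.23e-13). Its call held under each alternative that was run, including each of the 4 sums left out in turn.

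Tnfsf11, the gene of the other classical progesterone-driven signal, was nearly absent from the same cells. Over all annotated cells it had 5 UMIs, all in mouse 1, of which 4 were in 2 cells of cluster 15 and 1 was in a cell of cluster 6 that carried markers of another cell type. Cluster 13 had no Tnfsf11 UMI in 73 cells of mouse 1, which allows a share of cells with a UMI of up to 4.11% (3 cells), and none in 192 cells of mouse 2, which allows up to 1.56%. These limits concern cells with a UMI and not cells expressing the gene. As a level, 3 UMIs would have been 2.46 CPM in cluster 13 of mouse 1 and 1.24 CPM in that of mouse 2. A lower level of Tnfsf11 was not detectable at this depth, and the gene could be tested in none of the 3 comparisons.

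Of the hormone receptor genes, Pgr differed most between the mice. Pgr, the progesterone receptor gene, stood at 22.1 CPM in cluster 13 of mouse 1 (27 UMIs, 14.6 to 32.2) and at 161 CPM in that of mouse 2 (388 UMIs, 145 to 177). These intervals were apart, whereas those of Wnt4 (106 to 147 and 125 to 155 CPM) overlapped. Prlr, the prolactin receptor gene, stood at 701 and 1194 CPM, and Esr1, the estrogen receptor gene, at 68.9 and 79.4 CPM. Against the other tumor cells Pgr had a log2 fold change of 7.22 (SE 0.58, edgeR adjusted p = 7.14e-09) and Prlr of 3.79 (SE 0.23, 1.08e-10), while Esr1 had -0.10 (SE 0.19, 0.763) and stood at 80.4 and 90.4 CPM in the other tumor cells. The call of Pgr was lost when the other tumor cells of mouse 1 (adjusted p = 0.0755) or of mouse 2 (0.104) were left out, and that of Prlr without the latter (0.0567).

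Within cluster 13, the shares of cells with a Wnt4 UMI had overlapping intervals between cells with and without a Pgr UMI in both mice. Here and below, overlapping intervals do not show that 2 shares are equal, and no test compared the shares. In mouse 1, a Wnt4 UMI was found in 15 of 21 cells with a Pgr UMI (71.4%, 47.8 to 88.7%) and in 38 of 52 cells without one (73.1%, 59.0 to 84.4%). In mouse 2, it was found in 98 of 137 cells with a Pgr UMI (71.5%, 63.2 to 78.9%) and in 28 of 55 without one (50.9%, 37.1 to 64.6%). Cells with and without a Pgr UMI had median depths of 15345 and 15236 UMIs in mouse 1 and of 12467 and 10077 UMIs in mouse 2. At 2000 UMIs per cell the shares in mouse 2 were 31.1% (18.2 to 46.6%) and 21.0% (14.5 to 28.8%), and the intervals overlapped. Prlr, which nearly all these cells carried, gave the only unthinned intervals that were apart. In mouse 2, a Wnt4 UMI was found in 122 of 177 cells with a Prlr UMI (68.9%, 61.5 to 75.7%) and in 4 of 15 without one (26.7%, 7.79 to 55.1%), but the latter had a median depth of 2973 UMIs against 12347. At 2000 UMIs per cell the intervals overlapped, with 34 of 138 cells (17.7 to 32.7%) and 9 of 45 cells (9.58 to 34.6%). In mouse 1 there were 2 cells without a Prlr UMI. The part of depth in these differences was not tested beyond this thinning.

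**Figure D2:**
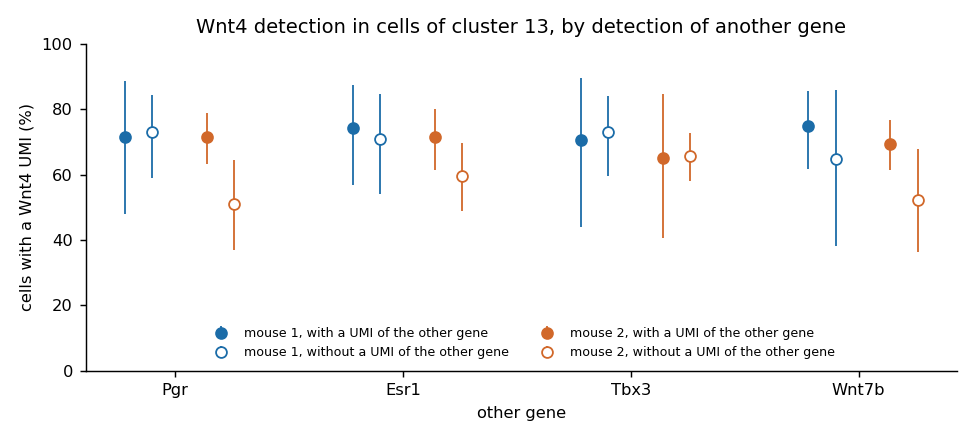
Share of cluster 13 cells with a Wnt4 UMI (%, unthinned, exact Clopper-Pearson 95% intervals) among cells with (filled) and without (open) a UMI of Pgr, Esr1, Tbx3 or Wnt7b, per mouse. The intervals overlap for Esr1, Tbx3 and Wnt7b in both mice and for Pgr; the widest gap among these 4 genes is that for Pgr in mouse 2, 71.5% against 50.9%.

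Tbx3 also had its highest level in cluster 13, at 23.8 CPM in mouse 1 (29 UMIs in 17 cells) and 12.0 CPM in mouse 2 (29 UMIs in 20 cells). The other tumor cells had 17 and 2 Tbx3 UMIs, or 0.315 and 0.0378 CPM, and 10 of the 18 clusters had none in either mouse. The log2 fold change was 6.93 (SE 0.66, edgeR adjusted p = 1.02e-07). Among the fits that included Tbx3, its call was lost only without the other tumor cells of mouse 2. With cells thinned to 2000 UMIs, 3 members could be tested and Tbx3 was not among them. Outside clusters 6 and 13 the UMIs were bunched in few cells. In mouse 1, cluster 1 had 8 UMIs in 3 cells and cluster 10 had 6 UMIs in 1 cell. In cluster 13, a Tbx3 UMI was found in 6 of 21 cells with and 11 of 52 cells without a Pgr UMI in mouse 1, and in 18 of 137 and 2 of 55 cells in mouse 2, with overlapping intervals in both mice. At 2000 UMIs per cell the counts were 0 of 2 and 3 of 70 in mouse 1, and 0 of 45 and 6 of 138 in mouse 2. These intervals overlapped as well.

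Tbx3 in cluster 6 differed between the mice, with 1.76 CPM (6 UMIs) in mouse 1 and 10.7 CPM (17 UMIs) in mouse 2. Of the 17 UMIs of mouse 2, 14 were in the 48 cells that carried at least 3 markers of fibroblasts, endothelial cells, pericytes or leukocytes. Without such cells the levels were 1.40 and 2.72 CPM. The call against the other tumor cells (log2 fold change 4.85, SE 1.27, edgeR adjusted p = 0.0300) was lost without cluster 6 of mouse 2 (3.25, 0.323) and without either sum of other tumor cells (0.110 and 0.214). The part of the marker-carrying cells in it was not tested beyond leaving them out.

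**Figure D3:**
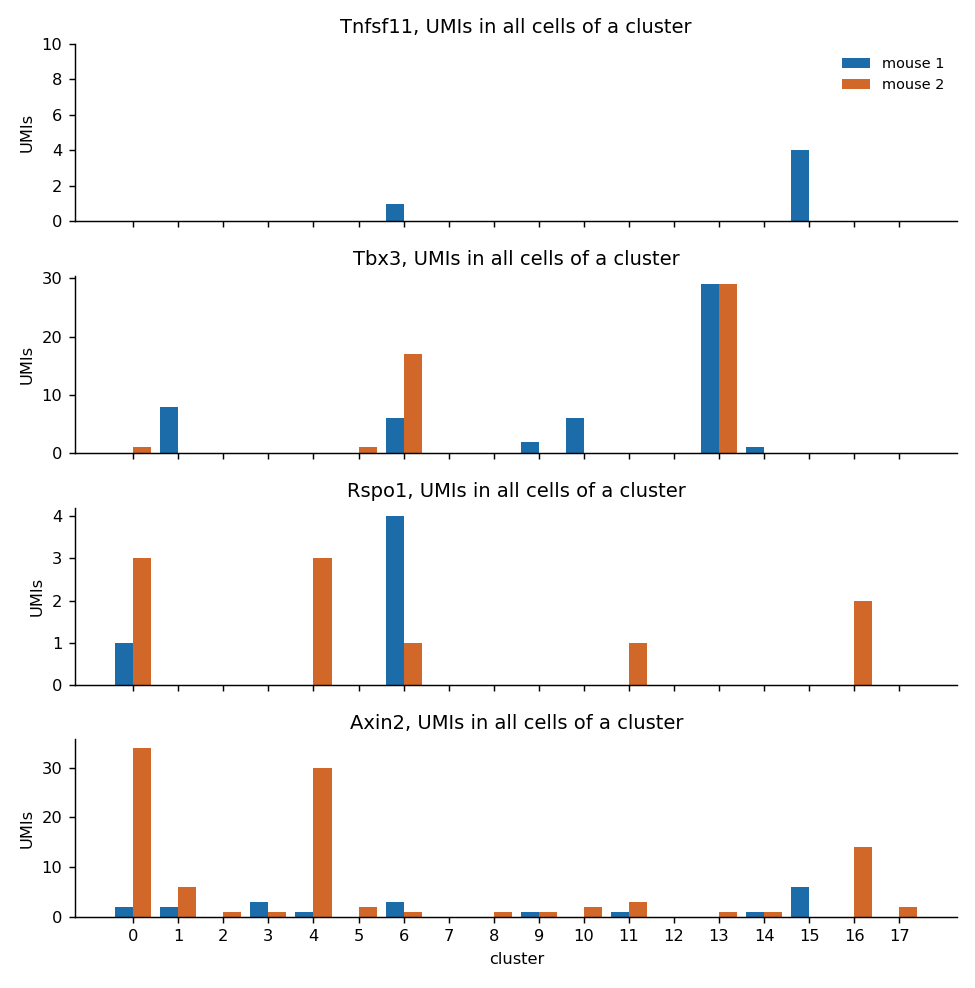
UMIs of Tnfsf11, Tbx3, Rspo1 and Axin2 summed over all cells of each cluster, for mouse 1 and mouse 2; each panel has its own scale from 0. Tbx3 has 29 UMIs in cluster 13 of each mouse, Tnfsf11 has 5 in all, and Axin2 has 34 and 30 UMIs in clusters 0 and 4 of mouse 2.

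Rspo1, the secreted R-spondin of this set, was scarce everywhere, with 5 UMIs in mouse 1 and 10 in mouse 2. Cluster 13 had none in either mouse, at the same limits on cells with a UMI as for Tnfsf11. Cluster 6 had 4 of the 5 UMIs of mouse 1 and 1 of the 10 of mouse 2. Against the other tumor cells its log2 fold change in cluster 6 was 3.66 (SE 1.36, edgeR adjusted p = 0.102), which did not pass.

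Axin2, the target gene of the pathway, had 20 UMIs in mouse 1 and 100 in mouse 2. In the other tumor cells this was 0.315 CPM (0.183 to 0.504) in mouse 1 and 1.85 CPM (1.50 to 2.25) in mouse 2, and the intervals did not overlap. With 1 mouse on each side, the difference between the mice has no replicate check. In mouse 2, 34 UMIs were in cluster 0 (2.18 CPM), 30 in cluster 4 (4.23 CPM) and 14 in cluster 16 (3.85 CPM), where mouse 1 had 2, 1 and 0. The highest level was that of cluster 1 in both mice (3.61 and 8.24 CPM). It came from 2 of 345 and 6 of 501 cells, with median depths of 1258 and 1009 UMIs. Cluster 13 had 0 and 1 Axin2 UMIs, and cluster 6 had 3 and 1. Neither cluster passed against the other tumor cells (log2 fold change -2.15, SE 1.52, edgeR adjusted p = 0.353 for cluster 13, and 0.07, SE 0.98, 0.971 for cluster 6).

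Lgr4, the R-spondin receptor, showed the opposite order to Wnt4 in clusters 6 and 13. It was highest in cluster 6, at 42.5 CPM in mouse 1 (35.9 to 50.0) and 37.1 CPM in mouse 2 (28.2 to 47.9), above cluster 2 (29.1 and 29.4 CPM) in both mice. It was lowest in cluster 13, at 4.92 CPM (1.81 to 10.7) and 6.62 CPM (3.78 to 10.7), below cluster 4 (12.4 and 8.89 CPM). Between these ends, neighbouring clusters overlapped in the ranges of the mice. The other tumor cells had 20.3 and 16.8 CPM. In cluster 13, Lgr4 UMIs were found in 5 of 73 and 15 of 192 cells (6.85% and 7.81%), against 1 of 23 and 5 of 215 (4.35% and 2.33%) in the leukocyte-marker barcodes, with overlapping intervals in both mice. In cluster 6 the shares were 34.6% and 24.6%. Median depths were 15278 and 11818.5 UMIs in cluster 13 and 6245 and 3866 UMIs in the leukocyte-marker barcodes. Thinned to 2000 UMIs, the counts were 0 of 72 and 4 of 183 (2.19%) in cluster 13. In the barcodes they were 0 of 17 and 2 of 150 (1.33%), again with overlapping intervals. The thinned shares of cluster 6 were 6.94% and 6.37%.

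Between cluster 13 and the other tumor cells, Lgr4 was lower by a log2 fold change of -1.50 (SE 0.35, edgeR adjusted p = 0.00310). This call was lost when any single one of the 4 sums was dropped (0.0847 to 0.130) and in cells thinned to 2000 UMIs (log2 fold change -1.18). In cluster 13 of mouse 1, an Lgr4 UMI was found in 4 of 53 cells with a Wnt4 UMI (7.55%, 2.09 to 18.2%) and in 1 of 20 without one (5.00%, 0.127 to 24.9%). In mouse 2, it was found in 14 of 126 cells with a Wnt4 UMI (11.1%, 6.21 to 17.9%) and in 1 of 66 without one (1.52%, 0.0384 to 8.16%), with overlapping intervals. The cells with a Wnt4 UMI were deeper, with medians of 15667 and 12722 UMIs against 13501 and 10296. At 2000 UMIs per cell, an Lgr4 UMI was found in 0 of 12 and 0 of 60 cells with and without a Wnt4 UMI in mouse 1. In mouse 2 it was found in 1 of 43 (2.33%) and 3 of 140 (2.14%).

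Against the other tumor cells, 6 members could be tested in cluster 6. Wnt4, Tbx3 and Lgr4 were higher, none was lower, and Rspo1, Axin2 and Tcf7l2 did not pass, where of 14350 genes tested 12.1% were higher and 6.63% were lower. Lgr4 had a log2 fold change of 1.07 (SE 0.20, edgeR adjusted p = 0.00656) and stayed at 43.8 and 45.3 CPM without the marker-carrying cells of cluster 6. Wnt4 had 1.56 (SE 0.41, 0.0315). A Wnt4 UMI was found in 17 of 260 cells (6.54%, 3.85 to 10.3%) and 15 of 167 cells (8.98%, 5.11 to 14.4%) of cluster 6, which overlaps the interval of the leukocyte-marker barcodes of mouse 2 (1.32 to 6.59%). Median depths were 12186 and 8146 UMIs in cluster 6 and 3866 UMIs in these barcodes. At 2000 UMIs the shares in mouse 2 were 3.82% (1.42 to 8.13%) in cluster 6 and 1.33% (0.162 to 4.73%) in the barcodes, with overlapping intervals. Without the mouse block none of the 3 calls passed (adjusted p = 0.0744 for Lgr4, 0.103 for Wnt4 and 0.0911 for Tbx3). With 1 sum left out, which also drops the mouse block, Lgr4 and Wnt4 lost their calls as well.

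The direct comparison of cluster 6 with cluster 13, the one made in the study, tested 4 members, and all 4 passed. Lgr4 and Tcf7l2 were higher and Wnt4 and Tbx3 were lower in cluster 6, where of 9794 genes tested 16.3% were higher and 12.1% were lower. Wnt4 had a log2 fold change of -4.08 (SE 0.33, edgeR adjusted p = 6.15e-12) and Lgr4 of 2.63 (SE 0.41, 4.33e-06), or 2.22 (0.0736) in thinned cells. Tbx3 had -1.83 (SE 0.55, 0.0104), with 0.131 without the mouse block, 0.360 in DESeq2 and 0.440 without cluster 6 of mouse 1. The 3 comparisons share sums and are not independent of each other. No gene of the whole table passed without cluster 6 of mouse 2 (3053 did at an unadjusted p under 0.05 in edgeR), so the loss of the members' calls there is not particular to them.

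Tcf7l2 was broadly present, and its order was set by other clusters. It was highest in cluster 1 (155 and 154 CPM), a cluster of shallow cells with medians of 1258 and 1009 UMIs, and in cluster 9 (125 and 161 CPM). By the mean of the mice, clusters 13 (32.8 and 41.4 CPM) and 4 (37.1 and 32.6 CPM) were lowest, although cluster 16 had 29.8 CPM in mouse 1, and no neighbours in the order were apart in both mice. Its level in cluster 6 was 57.5 and 82.4 CPM, and in the other tumor cells 50.4 and 71.6 CPM. Relative to the other tumor cells cluster 13 was lower by a log2 fold change of -0.61 (SE 0.21, edgeR adjusted p = 0.0454), and cluster 6 was higher than cluster 13 by 0.81 (SE 0.30, 0.0366). Neither call passed without the mouse block (0.182 and 0.0902), in DESeq2 (0.200 and 0.326) or with any 1 sum left out (0.155 to 0.444 and 0.0956 to 0.425). Between cluster 6 and the other tumor cells the log2 fold change was 0.16 (SE 0.16, 0.555).

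**Figure D4:**
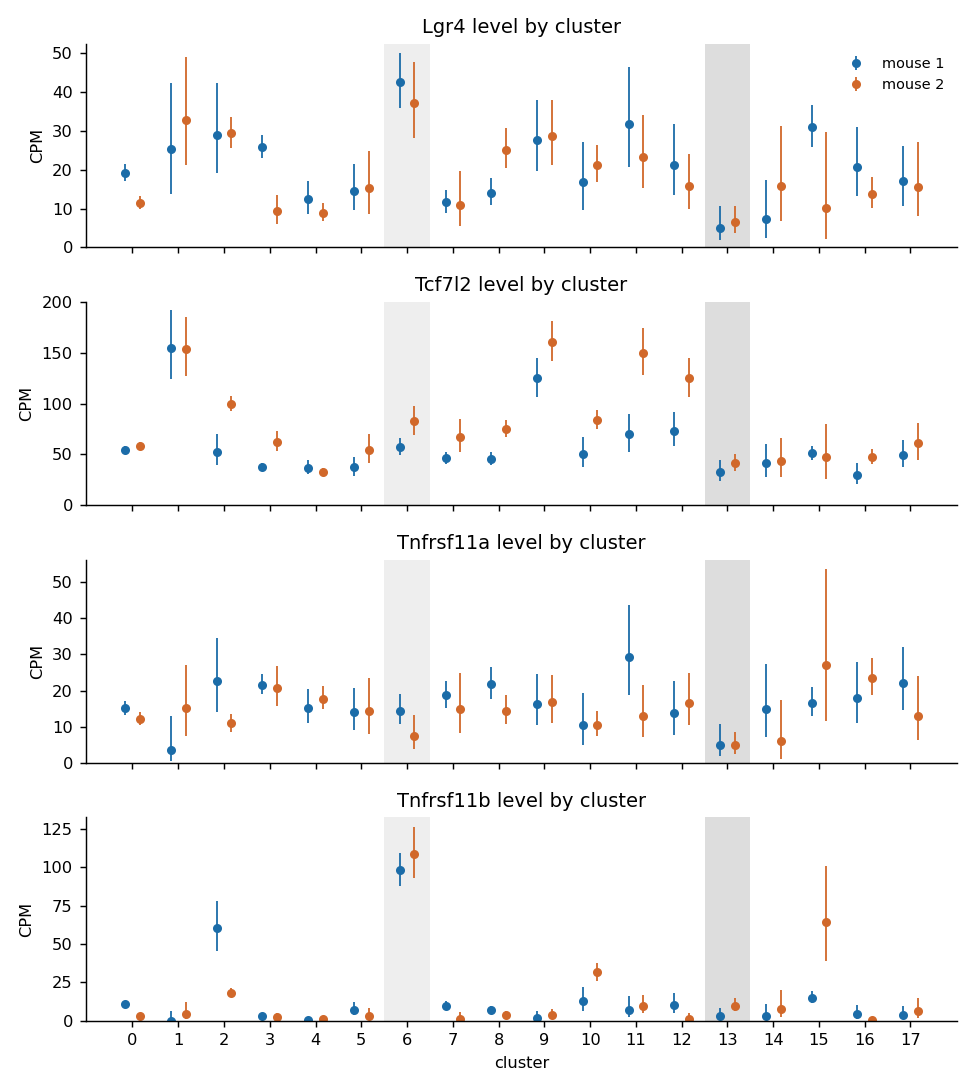
Levels (CPM, exact Poisson 95% intervals) of Lgr4, Tcf7l2, Tnfrsf11a and Tnfrsf11b in each of the 18 clusters, for mouse 1 and mouse 2; shading marks clusters 6 and 13, and each panel has its own scale from 0. Lgr4 and Tnfrsf11b are highest in cluster 6, and Lgr4 and Tnfrsf11a have their lowest means in cluster 13.

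On the receiving side of RANKL, Tnfrsf11a encodes its receptor RANK and Tnfrsf11b encodes osteoprotegerin, a soluble decoy that binds RANKL. Tnfrsf11a was present in all clusters of both mice. Its mean was lowest in cluster 13, at 4.92 and 4.96 CPM, but cluster 1 (3.61 and 15.1 CPM) overlapped that range. The other tumor cells had 17.8 and 14.4 CPM, and the log2 fold change of cluster 13 was -1.56 (SE 0.36, edgeR adjusted p = 0.00313). It did not pass in DESeq2 (0.0549) or with any 1 sum left out (0.0799 to 0.159). Tnfrsf11b was highest in cluster 6, at 98.2 CPM (88.0 to 109) and 109 CPM (93.2 to 126), apart from every other cluster. The next, cluster 15, had 15.0 and 64.5 CPM. Against the other tumor cells (8.57 and 7.44 CPM) its log2 fold change in cluster 6 was 3.65 (SE 0.19, 5.02e-06), and against cluster 13 it was 3.79 (SE 0.37, 5.11e-10), the latter lost without cluster 6 of mouse 2 (0.0812). In cluster 13 it stood at 3.28 and 9.93 CPM, with a log2 fold change of -0.05 (SE 0.42, 0.951) against the other tumor cells.

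**Figure D5:**
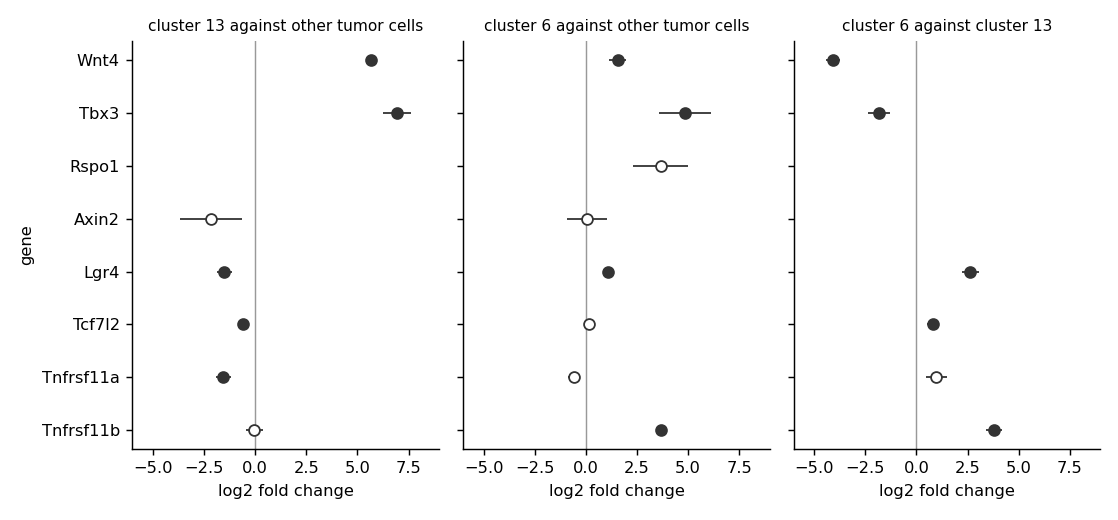
Log2 fold changes (points) with SE (bars) of the tested members and of Tnfrsf11a and Tnfrsf11b in 3 comparisons of UMI sums in edgeR; filled points passed an adjusted p of 0.05, and genes too scarce to test have no point. Wnt4 and Tbx3 lie right of 0 in cluster 13 and left of 0 in cluster 6 against cluster 13, and Lgr4 lies on the other side of 0 in both.

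Wnt4 was not the only Wnt ligand of cluster 13. Of 19 ligand genes, 6 were tested against the other tumor cells, 4 were higher (Wnt4, Wnt5a, Wnt7b and Wnt11), Wnt5b was lower and Wnt9a did not pass. Over all genes tested there, 11.0% were higher and 11.0% were lower. Wnt11, a ligand of beta-catenin-independent signalling, stood at 73.0 and 50.1 CPM in cluster 13 and 0.241 and 0.434 CPM in the other tumor cells (log2 fold change 7.57, SE 0.36, edgeR adjusted p = 2.01e-12). Wnt7b stood at 148 and 151 CPM against 26.3 and 12.3 CPM (3.17, SE 0.24, 4.16e-09). The calls of Wnt11 and Wnt7b held with each sum left out. Wnt5b went the other way, with 4.10 and 4.55 CPM against 19.7 and 22.3 CPM.

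In cluster 6 the same 4 ligands and 2 more were higher. Of 8 ligand genes tested against the other tumor cells, 6 were higher (Wnt4, Wnt5a, Wnt6, Wnt7b, Wnt10a and Wnt11) and none was lower. Over all genes tested in cluster 6, 12.1% were higher and 6.63% were lower. With 1 sum left out, 1 to 3 ligands passed there. There, Wnt6 had 21 and 6 UMIs (6.16 and 3.77 CPM), and Wnt10a had 21 and 3 UMIs (6.16 and 1.89 CPM) against 1 and 0 in the other tumor cells. Both genes needed to release Wnt proteins, Wls and Porcn, were higher in cluster 6, Wls at 141 and 128 CPM against 65.1 and 52.8 CPM (1.16, SE 0.16, edgeR adjusted p = 0.00136). Porcn was also higher in cluster 13 (1.76, SE 0.60, 0.0386), where 29 of its UMIs were in mouse 2 and 2 in mouse 1, and without that sum its sign turned (-0.22, 0.905). In cluster 6 the call of Porcn (1.79, SE 0.45, 0.0264) was lost with any 1 sum left out.

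Secreted Wnt antagonists were higher in cluster 6. Of 6 antagonist genes tested against the other tumor cells, 5 were higher (Sfrp1, Sfrp2, Frzb, Dkk3 and Wif1) and none was lower. Over all genes, 12.1% were higher and 6.63% were lower. The median log2 fold change of the antagonists was 4.31, against -0.06 over all genes. With 1 sum left out, 3 to 5 passed. Sfrp1, a secreted Frizzled-related protein gene, stood at 208 and 219 CPM in cluster 6, 32.7 and 10.5 CPM in the other tumor cells and 4.92 and 1.24 CPM in cluster 13 (6 against 13: log2 fold change 6.24, SE 0.41, edgeR adjusted p = 2.08e-14). Sfrp2 stood at 49.3 and 40.9 CPM in cluster 6, where its 168 UMIs of mouse 1 came from 12 cells. For Frzb, cluster 6 gave 23 and 22 UMIs, and the other tumor cells gave 1 and 0. Fibroblast markers were high in the same cluster (1597 and 3297 CPM over 12 genes). Without the marker-carrying cells the same number of antagonists, 5 of 6, passed, but the log2 fold change of Sfrp2 went from 5.15 to 2.22, while those of Dkk3 (7.06 and 6.65) and Frzb (9.43 and 7.73) stayed high, and the part of such cells was not tested further.

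Of the other receptors, Lgr6, a further R-spondin receptor, was lower in cluster 13 (1.64 and 2.48 CPM against 19.6 and 12.8 CPM in the other tumor cells, log2 fold change -2.69, SE 0.45, edgeR adjusted p = 0.000115), with no call when any 1 sum was left out (0.0570 to 0.0803). Of the 5 genes of that list tested in cluster 13, Lgr4 and Lgr6 were lower and none was higher. Of 15 Wnt receptor genes tested there, Ror2 and Fzd10 were higher and Fzd7, Fzd9 and Lrp6 were lower, and none of the receptor genes passed with any 1 sum left out. Ror2, a receptor for beta-catenin-independent Wnts, was scarce, with 4 and 9 UMIs from cluster 13 and 16 and 6 from cluster 6. Fzd9 had no UMI in cluster 13 of either mouse. In cluster 6, Fzd1, Fzd3, Fzd4, Ror2 and Ryk were higher and Fzd5 was lower, of 14 tested. Against cluster 13, 5 of 11 receptor genes (Fzd1, Fzd4, Fzd7, Lrp6 and Ror1) passed as higher in cluster 6, and there was no lower one. Over all genes, 11.0% were higher and 11.0% lower in cluster 13, and 12.1% and 6.63% in cluster 6, against the other tumor cells. In cluster 6 against cluster 13 these shares were 16.3% and 12.1%. The receptor counts were not tested against them.

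Inside the cell, the destruction complex gave few calls. Against the other tumor cells, 12.1% of all genes were higher and 6.63% lower in cluster 6, and 11.0% and 11.0% in cluster 13. The counts of this short list were not tested against these shares. Of 11 genes of the beta-catenin destruction complex and Dishevelled, none passed in edgeR in cluster 6 against the other tumor cells, with 0 at an unadjusted p under 0.05 and 0 in DESeq2, and Apc alone was higher in cluster 13 (log2 fold change 0.86, SE 0.19, 0.00248), a call lost with any 1 sum left out. Ctnnb1, the beta-catenin gene, stood at 192 and 209 CPM in cluster 6 and 232 and 217 CPM in the other tumor cells. Of 8 TCF/LEF factors and coactivators, Tcf7, Tcf7l1 and Tcf7l2 were lower and Bcl9l was higher in cluster 13, where 11.0% of all genes were lower and 11.0% higher. With 1 sum left out, 0 or 1 of these factors passed. Lef1 alone was higher in cluster 6, with 14 and 10 UMIs there and none in cluster 13.

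Feedback targets of the pathway, of which 11 could be tested in cluster 13, gave 3 calls. Against the other tumor cells, Nkd2, Tcf7 and Wif1 were lower and none was higher, where 11.0% of all genes were lower and 11.0% higher. Nkd2, an inhibitor of Dishevelled, had 0 and 5 UMIs in cluster 13 (0 and 2.07 CPM), 33.1 and 35.2 CPM in cluster 6 and 7.83 and 11.4 CPM in the other tumor cells. In cluster 6, Nkd2, Lef1, Apcdd1 and Wif1 were higher and none was lower of 11 tested, where 12.1% of all genes were higher and 6.63% lower. Apcdd1 did not pass in cluster 6 without the marker-carrying cells (1.70, edgeR adjusted p = 0.300). Axin2, the member on this list, was among those that did not pass in either cluster.

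In the list of RANKL receptors and signalling, 15 genes were tested in cluster 13. Of these, Ikbkb, Nfkb1, Relb and Traf2 were higher and Tnfrsf11a and Id2 were lower, where 11.0% of all genes were higher and 11.0% lower. Relb, a subunit of the alternative NF-kappaB dimer, stood at 55.8 and 65.0 CPM in cluster 13 and 25.3 and 29.4 CPM in the other tumor cells (log2 fold change 1.24, SE 0.22, edgeR adjusted p = 0.000195). Id2, an inhibitor of differentiation downstream of RANK in the gland, stood at 24.6 and 20.3 CPM against 82.0 and 79.8 CPM (-1.76, SE 0.22, 4.82e-06). The hormone receptor and hormone-sensing cell genes share members with the marker list that names cluster 13, and 8 of the 11 were higher there with no lower one, among them Cited1 at 572 and 514 CPM against 1.70 and 1.17 CPM (8.67, SE 0.25, 1.01e-15). Median log2 fold changes in cluster 13 were 2.37 over the 6 tested ligands and 3.80 over the 11 hormone genes, against -0.61 over the 5 tested members and -0.10 over all genes.

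Genes were ranked by how alike their levels were to those of a member across the 18 clusters, by Pearson's r of log2(CPM + 5), taking the lower r of the mice, over 10945 genes. The points share libraries and differ in depth, and the ranking is a description. For Wnt4 the 3 highest were Il18r1 (r = 0.897), Glul (0.874) and Tnip3 (0.873). For Lgr4 they were Smarca2 (0.846), Plxdc2 (0.787) and Foxc1 (0.762), and for Tcf7l2 Boc (0.866), Mylip (0.852) and Tgfb3 (0.852). The 4 other members had under 100 UMIs in at least 1 mouse and were not ranked.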

How the data were processed

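Tumor cells of 2 mice were profiled with the 10x 3′ v3.1 kit. Raw UMI counts per gene and cell were deposited by the authors, made with Cell Ranger 6.0.1 on mm10. The deposited annotation gives clusters (doublets, high-mitochondrial cells and immune clusters removed, integration in Seurat, 4.0.3 in the processing notes). Its mitochondrial fraction of UMIs (0 to 1) and signature scores by the authors were not used.

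Counts were summed per mouse and cluster and tested with edgeR 4.0.16 (limma 3.58.1, R 4.3.3): filterByExpr, TMM, quasi-likelihood, the mouse as block, 1 residual degree of freedom. The pairing comes from the animal, and the differences between the mice in the groups compared correlated across genes (r = 0.142, 0.249 and 0.431). Alternatives were DESeq2 1.42.0, no filter, no replicate block, thinning to 2000 UMIs, leaving out cells with UMIs of at least 3 markers of another cell type, 1 fit of all groups, and each sum left out. Fits with a sum left out had no mouse block. Scripts were tested on simulated counts. Levels are CPM, with 95% intervals. A floor is 3 counts. Thinning used random seed 1.

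The text names all members, hormone and RANKL receptors, up to 3 called genes of the largest change per pathway list and comparison (the 2 with the most UMIs where none passed), and the 3 most alike genes. Wnt5a, Wnt9a, Fzd3, Fzd5, Fzd7, Lrp6, Ryk and Ikbkb, and genes named under a comparison in which the rule did not pick them, were named after their values were seen, to complete counts. Members and lists were chosen with earlier results of these data known. Replicates are separate animals.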

Additional observations from a re-analysis of the deposited data

Results flagged for a closer look

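Barcodes without annotation, which entered no comparison, held UMIs of 4 members above the limit of 3 counts in both mice. They were 2346 barcodes in mouse 1 and 2208 in mouse 2. Wnt4 stood at 3.77 CPM there in mouse 1 and 3.29 CPM in mouse 2, Lgr4 at 14.4 and 11.0 CPM, Tcf7l2 at 52.8 and 52.4 CPM, and Axin2 at 0.887 and 1.76 CPM. Tnfsf11 had 0 and 3 UMIs in these barcodes, at or under that limit. With 2 mice of 1 group, no other kind of flag could be raised.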

How the results depend on the processing

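Calls depended on the fit, and with 2 mice the blocked fit of each comparison has 1 residual degree of freedom. A fit with 1 sum left out has no mouse block, so a call lost there cannot be laid to that sum alone. Genes past the threshold numbered 2782 for cluster 6 against cluster 13 (1117 in DESeq2, 968 thinned to 2000 UMIs, 0 to 1387 with 1 sum left out, 0 without cluster 6 of mouse 2), 3077 for cluster 13 against other tumor cells (1770 in DESeq2, 1409 without the replicate block, 1250 thinned, 242 to 768 with 1 sum left out) and 2693 for cluster 6 against other tumor cells (967 without the block, 1539 thinned, 525 to 973 with 1 sum left out). Members past it numbered 4, 4 and 3. The first was 2 in DESeq2, 2 without the block, 1 thinned and 0 to 3 with 1 sum left out, the second 2 thinned and 1 to 2, and the third 0 without the block, 0 thinned and 0 to 1. Of the members' 80 log2 fold changes under the other settings, 58 kept sign and side of the threshold, 18 lost the call and 4 turned sign, and of 52 with 1 sum left out, 19, 29 and 4.

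The sign turned for Porcn in cluster 13 (-0.22 to 2.64 with 1 sum left out, lowest without cluster 13 of mouse 2) and for Tnfrsf11b there (-1.20 to 0.39). In cluster 6 it turned for Axin2 (-0.88 to -0.30 with a sum of cluster 6 left out, not fitted with a sum of other cells left out, -0.0046 without the filter, -0.47 without the block, -0.52 without cells with markers of other types), Csnk1a1 (-0.28 to 0.043 with 1 sum left out) and Tcf7l2 (-0.11 to 0.43 with 1 sum left out, -0.070 thinned). Of these only Porcn had passed, and the cause was not tested. The share of cluster 13 cells with a Wnt4 UMI was 72.6% and 65.6% unthinned, 42.9% and 45.7% at 5000 UMIs and 27.8% in mouse 1 with another random seed. With a pseudocount of 1, the r of Il18r1 with Wnt4 was 0.838 and its rank 2. Glul then ranked 3 (0.813) and Tnip3 ranked 11 (0.747) for Wnt4, and Foxc1 ranked 4 for Lgr4. Depth limits Tnfsf11 and Rspo1 in every cluster, and Axin2 in clusters 6 and 13, which had 5 UMIs of it in all.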
